A study of Mus musculus with 10 samples.

Results

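The genes Syt6, Trim67, Bhlhe22 and Cpxm2 were examined as candidate markers of Foxa2- cardiac mesoderm (CM). They are 4 of the 38924 gene identifiers counted in every sample, and they were picked for a strong fall in Foxa2+ CM against Foxa2- CM in these libraries. That fall is therefore described below without a test, and so is any comparison that uses the same CM libraries. The remaining comparison, between endoderm and the Flk1+ high cells, compares libraries that did not enter the choice and was tested. Its spread was estimated over all 10 samples, CM libraries included, so values from its 4 samples alone are given beside it.

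All 10 samples came from 1 mouse embryonic stem cell (mESC) line, Foxa2-hCD4, in which a shortened human CD4 is made under the control of Foxa2, so that living cells can be sorted by an antibody to CD4. Stem cells of every group had been kept with Lif and the inhibitors PD and CHIR, and cells of every group were sorted at day 5 of differentiation. The 3 Foxa2+ CM and 3 Foxa2- CM samples were Kdr+ Pdgfra+ cells with and without hCD4 on their surface, from embryoid body cultures given VEGF at 5 ng/ml, Activin A at 8 ng/ml and BMP4 at 1 ng/ml from day 2. The 2 Flk1+ high samples, haematopoietic mesoderm named for a high level of the VEGF receptor Kdr (also called Flk1), came from the same cardiac protocol. The 2 endoderm samples were hCD4+ cells from cultures given Activin A at 75 ng/ml. No other line or clone was sequenced, and the labels do not say whether the replicates of a group were separate cultures, so p-values measure the spread between these samples, which may be technical.

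None of the 4 genes is a classical gene of heart or gut formation. Syt6 encodes a synaptotagmin, one of a family of membrane proteins with C2 domains that act in vesicle fusion, and is known from the exocytosis of the sperm acrosome. Trim67 encodes a brain-enriched E3 ubiquitin ligase of the TRIM family that binds the netrin receptor Dcc, and its closest relative is Trim9. Bhlhe22 (also called Bhlhb5) encodes a basic helix-loop-helix (bHLH) repressor of the Olig group that acts in neurons with the partner Prdm8 and represses the cadherin gene Cdh11. Cpxm2 encodes a secreted relative of the M14 carboxypeptidases that carries a discoidin domain and is thought to lack peptidase activity.

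Positions are those of GENCODE M21 on the mm10 build. Syt6 (ENSMUSG00000027849.12) lies at chr3:103575231-103645569 on the plus strand, Trim67 (ENSMUSG00000036913.8) at chr8:124793092-124834713 on the plus strand, Bhlhe22 (ENSMUSG00000025128.6) at chr3:18054174-18057517 on the plus strand and Cpxm2 (ENSMUSG00000030862.6) at chr7:132032687-132154739 on the minus strand. Their exons cover 5828, 8744, 3344 and 4622 bases in that order. The promoters are shown because the groups were sorted by a forkhead factor, Foxa2, and because Bhlhe22 is itself a DNA-binding bHLH factor. The RefSeq promoter table (GRCm38.p6, the assembly of mm10) held 3 of the 4 genes. Capitals mark matches to the forkhead core TGTTTAC, the E-box CANNTG bound by bHLH proteins or the GATA core AGATAA, each searched on both strands of the 250 bases before the RefSeq start. Each sequence is written from the distal end towards the start of its gene. The Syt6 window (chr3:103574995-103575230, plus strand) stops where the GENCODE gene begins, and the others are Trim67 (chr8:124792769-124793018, plus strand) and Cpxm2 (chr7:132154742-132154991, minus strand).
Syt6: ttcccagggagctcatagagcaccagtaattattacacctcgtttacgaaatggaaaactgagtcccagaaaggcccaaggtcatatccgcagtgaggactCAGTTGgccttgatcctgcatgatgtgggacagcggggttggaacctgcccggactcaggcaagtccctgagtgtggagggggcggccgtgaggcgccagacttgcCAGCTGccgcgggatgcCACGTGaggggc
Trim67: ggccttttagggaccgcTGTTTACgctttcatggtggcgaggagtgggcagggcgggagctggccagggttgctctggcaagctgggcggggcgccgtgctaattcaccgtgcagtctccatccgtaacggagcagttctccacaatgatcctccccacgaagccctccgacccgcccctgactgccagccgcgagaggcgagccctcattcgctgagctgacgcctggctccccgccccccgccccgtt
Cpxm2: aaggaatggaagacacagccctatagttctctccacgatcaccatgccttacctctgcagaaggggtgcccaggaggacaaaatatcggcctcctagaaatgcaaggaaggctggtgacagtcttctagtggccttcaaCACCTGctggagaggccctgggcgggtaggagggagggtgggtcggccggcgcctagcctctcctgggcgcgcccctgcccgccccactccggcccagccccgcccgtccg

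The Trim67 promoter held 1 forkhead match, whose first base is 233 bases before the RefSeq start. Syt6 and Cpxm2 held none, and the same letters occur in 3.17% of 32851 promoter windows of that length. Syt6 held 3 E-boxes, Cpxm2 held 1 and Trim67 held none, and 66.2% of windows hold at least 1. The GATA core was in none of the 3 sequences and is in 9.99% of windows. All 3 promoters were rich in G and C, at 60.4% for Syt6, 66.8% for Trim67 and 64% for Cpxm2, against a median of 52.4% over all windows. They held 13, 21 and 13 CpG dinucleotides, against a median of 6. A match is a description of the sequence, and no binding was measured here.

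Counts on genes totalled between 10926284 and 17470126 per sample. The unit of level is CPM, a count scaled to the size of its library. A count of 3, taken here as the floor of detection, equalled 0.172 to 0.275 CPM. Floors and counting intervals leave out all but counting error, and the reads had no molecular identifiers. The sorted groups carried their defining markers. The 3 Foxa2+ CM samples had 274, 277 and 62 counts of Foxa2 in replicate order, and Foxa2- CM had 41, 11 and 16. Endoderm had 1992 and 2184, and Flk1+ high had 11 and 10. Foxa2+ CM replicate 3, at 3.49 CPM, was thus close to Foxa2- CM replicate 1, at 2.54 CPM, and the members are given with and without it below. The 9 cardiac mesoderm markers, Kdr among them, summed to 1064 to 1268 CPM in Foxa2+ CM and 1329 to 1475 in Foxa2- CM. Their sum was 747 to 958 CPM in Flk1+ high and 131 to 219 CPM in endoderm. Kdr alone, by which Flk1+ high was sorted, was 554 to 592 CPM there, 353 to 424 in Foxa2+ CM and 391 to 440 in Foxa2- CM. The 8 endoderm markers summed to 1363 to 1465 CPM in endoderm and 52.0 to 166 CPM in the 8 mesoderm samples.

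Syt6 was highest in Foxa2- CM and lowest in Foxa2+ CM and Flk1+ high cells, with endoderm between them. Cpxm2 was highest in Foxa2- CM, and its endoderm samples lay above Foxa2+ CM but overlapped Flk1+ high. Bhlhe22 was highest in Foxa2- CM and lowest in endoderm and Flk1+ high cells, with Foxa2+ CM between. Trim67 was highest in endoderm, at 173 ± 56.5 CPM (SD, n = 2), which is 611% of its mean in Foxa2- CM. Foxa2- CM was therefore the top group for 3 of the 4 genes, and Trim67 marked Foxa2- CM only against the other mesoderm groups. In every Foxa2- CM sample each of the 4 genes stood above every Foxa2+ CM sample, as the choice of the genes fixes. Of all 15284 genes tested between the CM groups, 1594 (10.4%) were lower in every Foxa2+ CM sample in the same way.

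**Figure D1:**
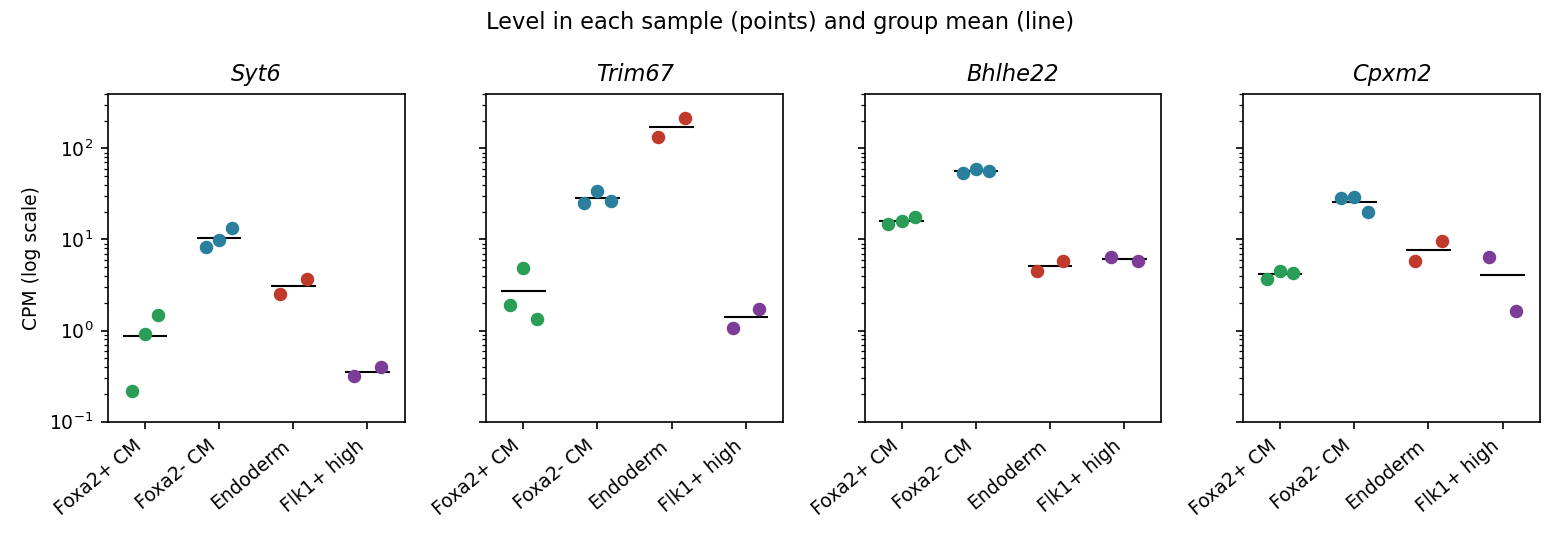
CPM of Syt6, Trim67, Bhlhe22 and Cpxm2 (log axis) in each of the 10 samples (points) of the 4 sorted groups, with the group mean as a line. The 3 Foxa2- CM samples sit above the 3 Foxa2+ CM samples in every panel, and only for Trim67 do the endoderm samples, at 133 and 213 CPM, sit above Foxa2- CM.

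Syt6, the membrane-trafficking gene, had 132, 124 and 237 counts in Foxa2- CM replicates 1, 2 and 3, or 8.16, 9.83 and 13.4 CPM. In Foxa2+ CM it had 3, 16 and 26 counts, or 0.219, 0.925 and 1.46 CPM, the first of which is at the floor of 3 counts. It had 27 and 44 counts in endoderm (2.51 and 3.68 CPM) and 5 in each Flk1+ high sample (0.313 and 0.393 CPM). The Foxa2- CM samples were all high, endoderm was intermediate without overlapping any other group, and Foxa2+ CM overlapped Flk1+ high. The lowest Foxa2- CM sample was 5.57 times the highest Foxa2+ CM sample. The mean of the 3 samples was 10.5 CPM (SD 2.65) in Foxa2- CM and fell to 0.870 CPM (SD 0.625) in Foxa2+ CM, and the fitted log2 fold change was -3.53. That was the change ranked 8 from the lowest of the 15284 genes. The group means in endoderm and Flk1+ high were 29.6% and 3.38% of that in Foxa2- CM.

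Trim67, the ubiquitin ligase, had 1431 and 2551 counts in endoderm, or 133 and 213 CPM. It had 410, 424 and 463 counts in Foxa2- CM (25.4, 33.6 and 26.1 CPM) and 26, 84 and 24 counts in Foxa2+ CM (1.90, 4.86 and 1.35 CPM). The Flk1+ high samples had 17 and 22 counts (1.07 and 1.73 CPM). The levels were thus apart, with endoderm above Foxa2- CM and Foxa2- CM above the remaining groups, while Foxa2+ CM overlapped Flk1+ high. The lowest endoderm sample was 3.96 times the highest Foxa2- CM sample, and the lowest Foxa2- CM sample was 5.22 times the highest Foxa2+ CM sample. Between the CM groups the log2 fold change was -3.37, ranked 11 from the lowest. Foxa2+ CM replicate 2 was the high sample of its group, and without it the value was -4.15.

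Bhlhe22, the bHLH repressor, had 858, 754 and 992 counts in Foxa2- CM (53.1, 59.8 and 55.9 CPM) and 203, 275 and 311 counts in Foxa2+ CM (14.8, 15.9 and 17.5 CPM). It had 48 and 69 counts in endoderm (4.47 and 5.77 CPM) and 102 and 73 in Flk1+ high (6.39 and 5.74 CPM). This was the least variable of the 4 genes within the CM groups, with an SD of 6.01% of the mean in Foxa2- CM and 8.45% in Foxa2+ CM. The CM groups did not overlap each other or the remaining groups, and endoderm overlapped Flk1+ high. Its log2 fold change between the CM groups was -1.80, the smallest of the 4, ranked 129 from the lowest. Foxa2+ CM kept 28.6% of the Foxa2- CM mean, against 8.32% for Syt6, 9.53% for Trim67 and 16.1% for Cpxm2.

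Cpxm2, the secreted carboxypeptidase relative, had 459, 367 and 359 counts in Foxa2- CM (28.4, 29.1 and 20.2 CPM) and 51, 78 and 76 counts in Foxa2+ CM (3.72, 4.51 and 4.28 CPM). The endoderm samples had 63 and 114 counts (5.86 and 9.53 CPM) and the Flk1+ high samples 102 and 21 (6.39 and 1.65 CPM). Foxa2- CM was the high group in all 3 samples, and the Flk1+ high samples lay on either side of all 3 Foxa2+ CM samples and of endoderm replicate 1. The lowest endoderm sample was 1.30 times the highest Foxa2+ CM sample. The log2 fold change between the CM groups was -2.62, ranked 40 from the lowest. Per kilobase of exon, where genes can be set side by side, the mean level in Foxa2- CM was 16.8 CPM per kb for Bhlhe22, 5.61 for Cpxm2, 3.24 for Trim67 and 1.79 for Syt6.

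Without Foxa2+ CM replicate 3, the library with little Foxa2, the log2 fold changes were -4.11 for Syt6, -3.03 for Trim67, -1.87 for Bhlhe22 and -2.64 for Cpxm2. The choice had no stated threshold, and many genes with as large a fall are not among the 4, as their ranks of 8, 11, 40 and 129 show.

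**Figure D2:**
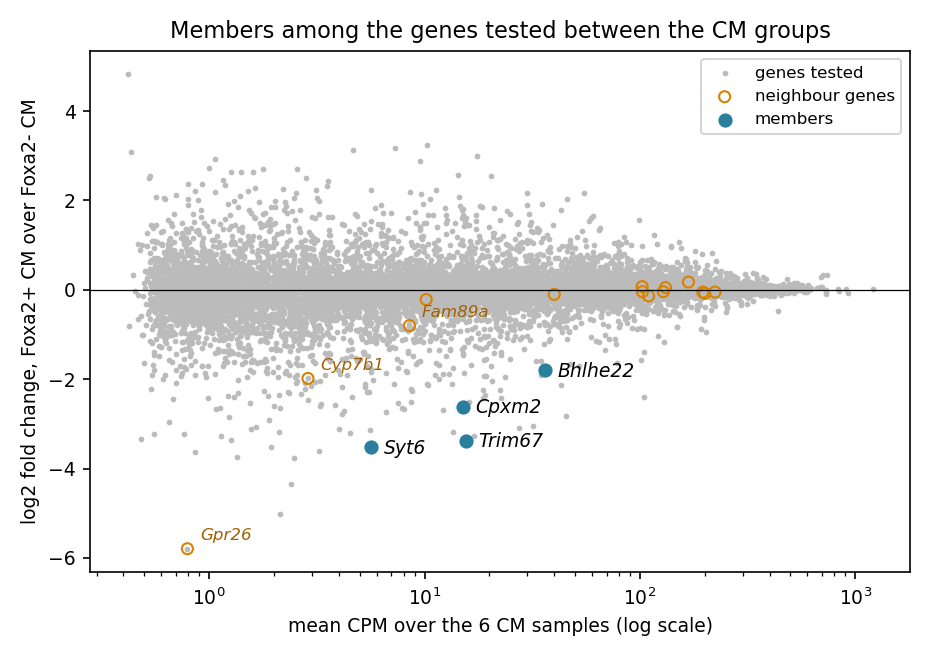
Log2 fold change of Foxa2+ CM over Foxa2- CM (vertical axis) against mean CPM over the 6 CM samples (log axis) for the 15284 genes tested, with the 4 members filled and labelled and the genes beside them on the chromosome as open circles. The members sit at -3.53, -3.37, -1.80 and -2.62 below the bulk of the genes, and the neighbours Gpr26, Cyp7b1 and Fam89a are labelled. Gpr26 rests on 1 count in Foxa2+ CM, so its fitted value depends on the prior count.

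Against the other sorted populations, Foxa2- CM stood above Flk1+ high for all 4 genes, with log2 fold changes of 4.87 for Syt6, 4.36 for Trim67, 3.21 for Bhlhe22 and 2.66 for Cpxm2. Foxa2- CM against endoderm gave 1.75 for Syt6, 3.45 for Bhlhe22, 1.75 for Cpxm2 and -2.61 for Trim67. The sign for Trim67 was thus opposite to that of the other three. Foxa2+ CM against Flk1+ high gave 1.33 for Syt6, 0.99 for Trim67, 1.40 for Bhlhe22 and 0.03 for Cpxm2, and among these only the Bhlhe22 samples did not overlap. Foxa2+ CM against endoderm gave -1.78 for Syt6, -5.98 for Trim67, 1.65 for Bhlhe22 and -0.88 for Cpxm2. These comparisons share CM libraries with each other and with the choice of genes, and so have no test. Cpxm2 in Foxa2+ CM against Flk1+ high was 1.33 without Flk1+ high replicate 1 and -0.58 without replicate 2. Without Flk1+ high replicate 1, Cpxm2 in Foxa2- CM stood 3.96 above Flk1+ high on the log2 scale. Trim67 in Foxa2+ CM without replicate 2 stood 0.22 above Flk1+ high and -6.75 from endoderm.

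The comparison of endoderm with Flk1+ high asked how the genes differ between populations outside CM. Syt6 and Trim67 were higher in endoderm, and Bhlhe22 and Cpxm2 did not pass the test. Over all 16180 genes tested, 2654 (16.4%) were higher and 2622 (16.2%) were lower in endoderm, with edgeR's quasi-likelihood test and a threshold of 0.05 on the adjusted p, so 2 of 4 genes is a count to read against a common outcome. Trim67 had a log2 fold change of 6.97 (SE 0.559, adjusted p = 3.62e-05, 95% interval 5.72 to 8.23). Syt6 had 3.12 (SE 0.679, adjusted p = 0.00666, interval 1.59 to 4.64), although its Flk1+ high value rests on 5 counts per sample. Fitted on the 4 samples alone, the adjusted p was 0.00125 for Trim67 and 0.0154 for Syt6 in edgeR. Bhlhe22 had -0.24 (SE 0.171, adjusted p = 0.314), with an interval of -0.63 to 0.14. Cpxm2 had 0.92 (SE 0.496, adjusted p = 0.195), with an interval of -0.20 to 2.03. Its Flk1+ high samples differed from each other, and without Flk1+ high replicate 1 the value was 2.21 with an adjusted p of 0.00318 from edgeR, where the lone sample is assumed to vary like the other groups. Without Flk1+ high replicate 2 it was 0.27.

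The relatives and partners of the 4 genes were counted as lists of family members, 56 genes in all without the members, of which 33 could be tested between the CM groups. Most did not pass the test. In Foxa2+ CM 3 were higher and 2 were lower by edgeR's quasi-likelihood test, where 3.81% and 2.66% of all genes tested were called in those directions. The median log2 fold change of the 33 genes was -0.0397, and that of all genes tested was -0.00135. Large falls were thus not shared by most relatives of the members, as the plot of families shows.

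**Figure D3:**
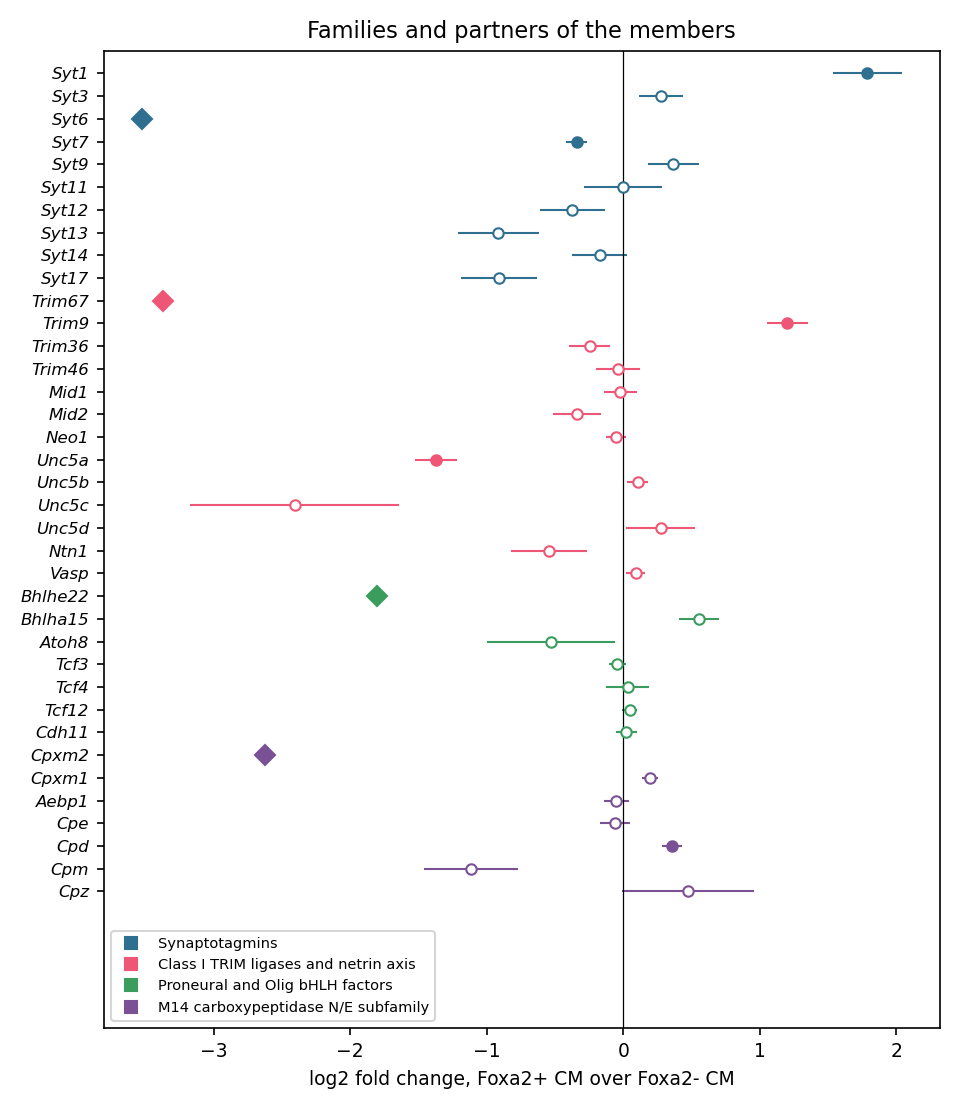
Log2 fold change of Foxa2+ CM over Foxa2- CM for the 33 tested relatives and partners (circles, bars are standard errors, filled where adjusted p was under 0.05) and the 4 members (diamonds, without error bars because they were chosen by this contrast), coloured by list. Filled circles above 0 are Syt1, Trim9 and Cpd, and filled circles below 0 are Unc5a and Syt7.

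Of the 16 other synaptotagmins, 9 were tested between the CM groups. Syt1, the calcium sensor of fast synaptic release, stood at 3.14, 3.82 and 3.44 CPM in Foxa2+ CM and 0.866, 0.793 and 1.30 CPM in Foxa2- CM. It was thus higher in every Foxa2+ CM sample, the direction opposite to Syt6, as were 13.6% of all genes tested. Its log2 fold change was 1.79 (SE 0.251, adjusted p = 0.00759, edgeR). The call was lost without Foxa2+ CM replicate 2 (adjusted p = 0.0523, edgeR) and without Foxa2- CM replicate 2 (adjusted p = 0.0505, edgeR), each time just above 0.05. Syt7, a calcium sensor of slower release and of lysosome exocytosis, stood at 65.8, 71.1 and 68.4 CPM in Foxa2+ CM and 83.6, 82.3 and 94.4 CPM in Foxa2- CM. Its log2 fold change was small, at -0.34 (SE 0.0748, adjusted p = 0.0367), and the call was lost in edgeR when any CM replicate other than Foxa2- CM replicate 3 was left out (adjusted p between 0.0721 and 0.117). Per kilobase of exon, Syt6 was at 1.79 CPM per kb in Foxa2- CM, below Syt7 at 11.6, Syt3 at 3.59 and Syt9 at 2.31, and close to Syt13 at 1.70. In Foxa2+ CM the Syt6 level was 0.149 CPM per kb, below that of Syt1 at 0.415.

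Among the 13 other genes of the TRIM and netrin list, 12 were tested. Trim9, the closest relative of Trim67, stood at 14.1, 13.1 and 13.9 CPM in Foxa2+ CM and 6.74, 6.03 and 5.13 CPM in Foxa2- CM. It was higher in Foxa2+ CM, with a log2 fold change of 1.20 (SE 0.149, adjusted p = 0.00498), a call lost when all 10 samples shared 1 model (adjusted p = 0.0793, edgeR). The endoderm samples, where Trim67 was highest, held 4 and 18 counts of Trim9. Per kilobase of exon, the ratio of Trim67 to Trim9 was 0.219, 0.601 and 0.158 in Foxa2+ CM and 6.11, 9.06 and 8.26 in Foxa2- CM. It was 581 and 230 in endoderm and 1.84 and 2.98 in Flk1+ high. The more abundant of the pair was thus Trim9 in every Foxa2+ CM sample and Trim67 in every other sample.

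**Figure D4:**
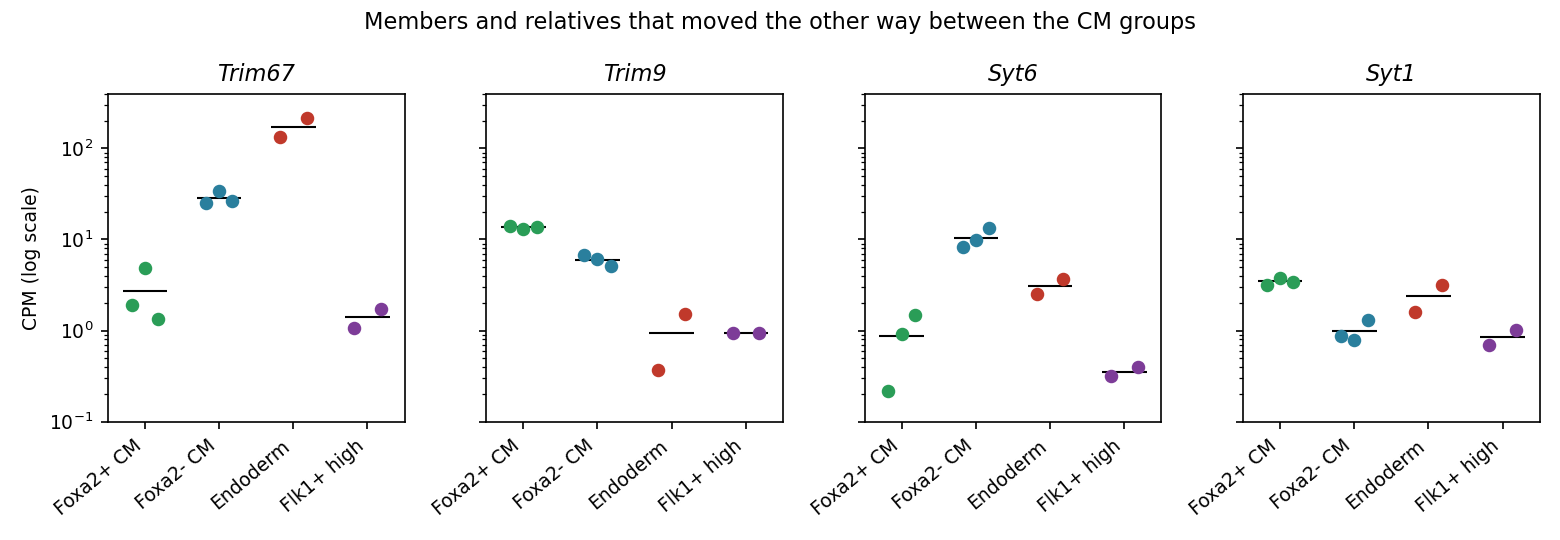
CPM (log axis) of Trim67 beside Trim9 and of Syt6 beside Syt1 in each sample (points) of the 4 sorted groups, with group means as lines. Trim9 and Syt1 are higher in the 3 Foxa2+ CM samples than in the 3 Foxa2- CM samples, and Trim67 and Syt6 are lower there.

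The netrin receptors were read because Trim67 and Trim9 bind Dcc. Dcc itself was at 0 counts in all 6 CM samples. Unc5a, another netrin receptor, stood at 4.75, 4.63 and 4.62 CPM in Foxa2+ CM and 14.1, 11.1 and 11.1 CPM in Foxa2- CM. It was lower in Foxa2+ CM in the same direction as Trim67, with a log2 fold change of -1.37 (SE 0.157, adjusted p = 0.00439), and its adjusted p was at most 0.0343 under every alternative run. Its relative Unc5c had a larger log2 fold change of -2.41 that did not pass (adjusted p = 0.122, edgeR), with 7.30, 15.4 and 76.3 CPM in Foxa2+ CM and 98.5, 140 and 291 CPM in Foxa2- CM. The ligand gene Ntn1 spanned 1.30 to 2.66 CPM in Foxa2+ CM, and 2.70 to 3.03 CPM in the Foxa2- group (adjusted p = 0.359, edgeR).

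For Bhlhe22, 6 of the 20 other genes of the bHLH list and its partners could be tested between the CM groups and none was called (0 higher and 0 lower by edgeR). Another 3 of the 20 had no count in any sample. Cdh11, a gene that Bhlhe22 represses in neurons, stood at 308, 287 and 294 CPM in Foxa2+ CM and 274, 324 and 279 CPM in Foxa2- CM, so that the groups overlapped. The change was 0.02 on the log2 scale (adjusted p = 0.940 from edgeR). The partner gene Prdm8 lay between 0.405 and 0.584 CPM in Foxa2+ CM, and between 0.186 and 0.397 CPM in Foxa2- CM, too low to be tested. The nearest relatives were low too, with Bhlhe23, Olig1, Olig2 and Olig3 at or under 0.143 CPM per kb in each CM group, against 16.8 for Bhlhe22 in Foxa2- CM.

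Of the 7 other listed genes of the M14 carboxypeptidase N/E subfamily, 6 were tested. Cpd, a carboxypeptidase of the secretory pathway, stood at 173, 197 and 178 CPM in Foxa2+ CM and 133, 147 and 148 CPM in Foxa2- CM. The log2 fold change was 0.36 (SE 0.0733, adjusted p = 0.0289). The call was lost in edgeR without replicate 1 or 2 of either CM group (adjusted p between 0.0606 and 0.157) and in a model of all 10 samples (adjusted p = 0.162), as was that of Syt7 in the same model (adjusted p = 0.821). Cpxm1, the closest relative of Cpxm2, had means of 32.9 CPM per kb in Foxa2+ CM and 28.8 in Foxa2- CM and was not called, while Cpxm2 had 0.903 and 5.61.

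In endoderm against Flk1+ high, 36 of the 56 relatives and partners were tested, with 15 higher and 2 lower in endoderm. Of all genes tested, 16.4% were higher and 16.2% were lower. The median log2 fold change of the 36 genes was 0.48, against -0.00415 over all genes. Of the synaptotagmins, 6 of 10 tested were higher and 0 lower (edgeR), from Syt3 at 1.21 to Syt13 at 5.87, with Syt1 at 1.49, Syt9 at 2.72, Syt17 at 2.36 and Syt5 at 5.47. Syt6 at 3.12 was within that range. Of the TRIM and netrin list, the netrin ligand gene Ntn1 (6.28), the receptor genes Unc5a (3.66) and Neo1 (0.72) and the ligase gene Trim46 (2.57) were higher, and Unc5c (-7.42) was lower. The bHLH list had Bhlha15 (2.56), Tcf12 (0.29), Prdm8 (3.15) and Cdh11 (0.49) higher. Of the carboxypeptidases, Cpn1 (6.85) was higher, with 3.91 and 30.2 CPM in endoderm, and Aebp1 (-1.47) was lower. Without endoderm replicate 2, Syt1 was at 0.90 (adjusted p = 0.207, edgeR), Syt3 at 1.10 (adjusted p = 0.0834, edgeR) and Neo1 at 0.58 (adjusted p = 0.0976, edgeR), none of them called. Calls were also lost for Syt1 without Flk1+ high replicate 1 (1.22, adjusted p = 0.105 from edgeR), Syt3 without Flk1+ high replicate 2 (0.78, adjusted p = 0.0568 from edgeR) and Tcf12 without endoderm replicate 1 (0.25, adjusted p = 0.0543 from edgeR). Several called values moved by over 1.5 times when 1 library was left out. Without Flk1+ high replicate 1, Syt3 was at 1.87, Syt17 at 3.70, Ntn1 at 8.30 and Prdm8 at 3.81, and without Flk1+ high replicate 2, Syt17 was at 1.75 and Ntn1 at 5.55. Without endoderm replicate 2, Bhlha15 was at 1.55, Prdm8 at 2.40 and Cpn1 at 4.73, and without endoderm replicate 1, Cpn1 was at 7.66. In a fit of only the 4 samples compared, Syt1, Syt3, Syt17, Neo1, Bhlha15 and Tcf12 were not called.

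The genes beside the members on their chromosomes were also read, as the nearest 2 protein-coding genes on each side. Of these 16 neighbours 14 were tested between the CM groups, with 0 higher and 3 lower in Foxa2+ CM (edgeR), where 2.66% of all genes were lower. Each of the 3 is the next gene to a member. Gpr26, an orphan receptor gene 38.3 kb from Cpxm2, had 0, 1 and 0 counts in Foxa2+ CM and 27, 19 and 27 counts in Foxa2- CM (adjusted p = 0.00242, edgeR). Scaled for depth, the summed counts of 73 and 1 give a ratio of 77.4, with an exact 95% counting interval of 13.5 to 3100. Gpr26 had 18 and 13 counts in endoderm and 12 and 0 in Flk1+ high.

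Cyp7b1 is an oxysterol hydroxylase gene whose nearer end, whichever end that is, lies 14.4 kb from Bhlhe22. It stood at 1.02, 0.809 and 1.63 CPM in Foxa2+ CM and 3.77, 4.04 and 5.98 CPM in Foxa2- CM. That gave -1.98 on the log2 scale (SE 0.322, adjusted p = 0.0130, edgeR). Fam89a, 41.3 kb from Trim67, stood at 4.97, 6.65 and 6.99 CPM in Foxa2+ CM and 10.1, 10.2 and 12.1 CPM in Foxa2- CM, which gave -0.80 (SE 0.179, adjusted p = 0.0388). All 3 genes were lower in each Foxa2+ CM sample than in any Foxa2- CM sample, as were 10.4% of all genes tested between the CM groups. Outside CM, Cyp7b1 had a mean of 4.63 CPM in endoderm, near its 4.60 in Foxa2- CM, and of 1.37 in Flk1+ high. Bhlhe22, in contrast, was far lower in endoderm than in Foxa2- CM. The means of Fam89a were 43.5 CPM in endoderm and 18.3 in Flk1+ high, both above its 10.8 in Foxa2- CM. Trim67 was lower in Flk1+ high than in Foxa2- CM. Cyp7b1 lost its call in edgeR without Foxa2+ CM replicate 1, Foxa2+ CM replicate 2 or Foxa2- CM replicate 2 (adjusted p between 0.0594 and 0.0713), and so did Fam89a without replicate 1 or 2 of either CM group (adjusted p between 0.0871 and 0.132). In a model of all 10 samples neither was called, with adjusted p of 0.0662 for Cyp7b1 and 0.134 for Fam89a in edgeR. The remaining 11 tested neighbours had log2 fold changes from -0.22 for Olfml3 to 0.17 for Oat and were not called. They include 2810004N23Rik, 2.23 kb after Trim67, at -0.04.

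**Figure D5:**
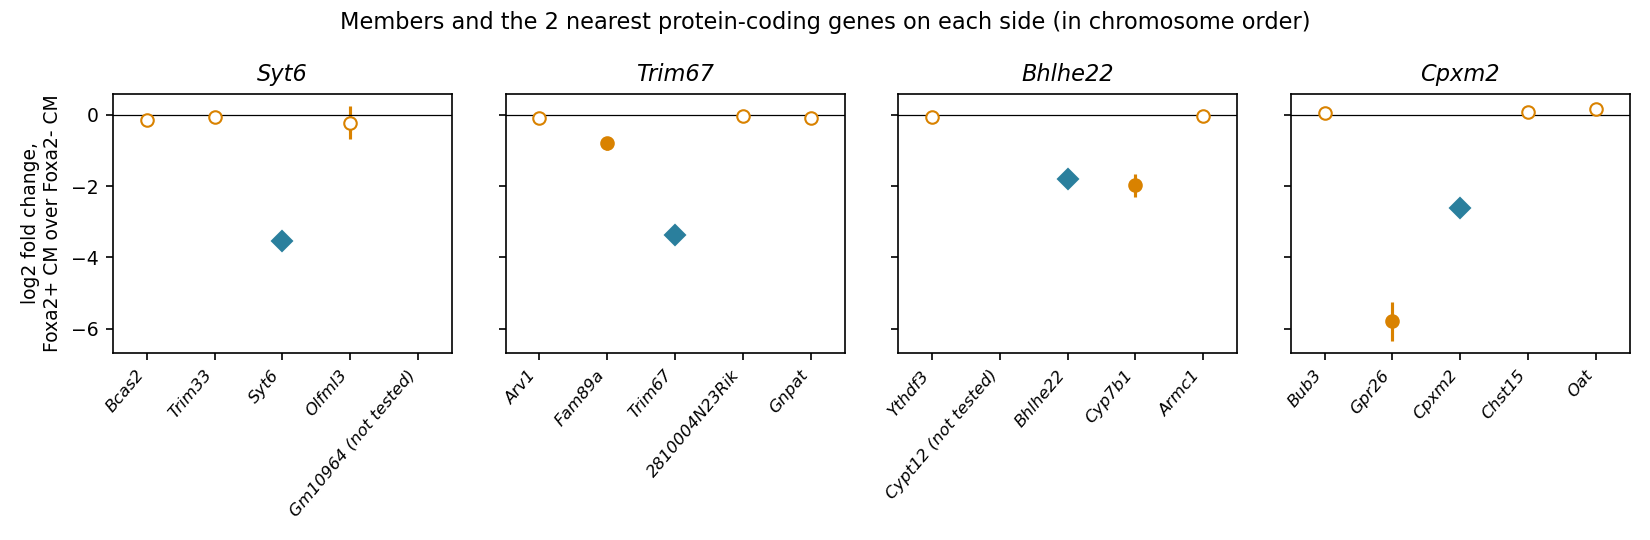
Log2 fold change of Foxa2+ CM over Foxa2- CM for each member (diamond) and the nearest 2 protein-coding genes on each side in chromosome order (circles, bars are standard errors, filled where adjusted p was under 0.05). The filled circles are Fam89a at -0.80, Cyp7b1 at -1.98 and Gpr26, whose fitted value rests on 1 count in Foxa2+ CM, and the other neighbours lie near 0.

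Other annotated genes overlap the exons of 3 members, and the libraries do not mark strand. Atg4a-ps shares 505 exonic bases with Syt6 on the opposite strand and had 0 to 2 counts per sample. Gm16163 shares 140 bases with Trim67 and had 4 to 15 counts. Gm15677 shares 351 bases with Cpxm2 on the opposite strand and had 0 to 1 counts. The annotated span of Fgfr2 covers Cpxm2 without sharing an exonic base, and had 88 to 919 counts in Foxa2+ CM and 739 to 2365 in Foxa2- CM. Its part in the Cpxm2 counts was not tested.

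Over the 10 samples the 4 genes did not follow a single pattern. The Pearson correlation of their log2 CPM was 0.872 for Syt6 with Cpxm2, 0.743 for Bhlhe22 with Cpxm2, 0.725 for Syt6 with Trim67 and 0.660 for Syt6 with Bhlhe22. It was 0.569 for Trim67 with Cpxm2 and 0.0680 for Trim67 with Bhlhe22. The points share 4 sorted groups and the CM libraries used in the choice, so these values are descriptions only.

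The genes most like each member over the 10 samples, among 16180 genes, were named by the same correlation. Trim67 was most like Cdh3 (0.969), a cadherin gene, and Nanog (0.967), the pluripotency factor gene, followed by Iigp1, Pde4b and Ighm. Nanog stood at 156 to 162 CPM in endoderm, 23.5 to 35.8 in Foxa2- CM, 4.97 to 6.48 in Foxa2+ CM and 1.65 to 1.82 in Flk1+ high. Cpxm2 was most like Cdx1 (0.957), a caudal homeobox gene of the posterior embryo, and then Dner, Pdlim4, Fam184b and A930017K11Rik. The mean of Cdx1 was 11.6 CPM in Foxa2- CM, 3.75 in endoderm, 1.73 in Foxa2+ CM and 1.18 in Flk1+ high. Syt6 was most like Lhfpl2 (0.952), followed by Fam162b, Rgs20, Gal and Tmem185a. The neuropeptide gene Gal had means of 2.51 CPM in Foxa2- CM, 1.05 in endoderm, 0.169 in Foxa2+ CM and 0.0313 in Flk1+ high. Bhlhe22 was most like Prkd2 (0.965), followed by Suv39h1, Abhd12b, Dlx2 and P4ha2. Prkd2 changed far less, with means of 108 CPM in Foxa2- CM, 91.9 in Foxa2+ CM, 66.2 in endoderm and 68.8 in Flk1+ high, and a correlation does not measure the size of a change.

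Some markers of other cell types also differed between the CM groups, in both directions. In bulk samples, fewer cells of a type and less RNA per cell cannot be told apart. Among all genes tested, 3.81% were called higher and 2.66% lower in Foxa2+ CM. Of the 5 pluripotency and epiblast markers, 0 were higher and 1 was lower in Foxa2+ CM (edgeR), Nanog at -2.41 (adjusted p = 0.00132). The uncalled markers of this list moved both ways, with log2 values from -0.76 to 1.33. The sum of the 5 was 71.2 to 107 CPM in Foxa2+ CM and 78.6 to 126 in Foxa2- CM, so the groups overlapped. It was 515 to 541 CPM in endoderm and 35.6 to 63.2 CPM in Flk1+ high. Of the 12 neural markers, 8 were tested, with Sox3 higher (1.40) and Sox2 (-0.89) and Tubb3 (-1.03) lower in Foxa2+ CM, and the sum was 171 to 179 CPM in Foxa2+ CM and 178 to 182 in Foxa2- CM. Of the 6 neural crest markers, 3 were tested and 0 were called (edgeR), with log2 values of -0.73 for Sox10, -0.98 for Tfap2a and -1.90 for Snai2. The sum of the 6 was 3.07 to 6.93 CPM in Foxa2+ CM and 7.77 to 17.8 in Foxa2- CM, so it was lower in every Foxa2+ CM sample. Of all genes tested between the CM groups, 10.4% were lower in that way. Snai2, at 0.803 to 2.37 CPM in Foxa2+ CM and 1.92 to 12.1 in Foxa2- CM, overlapped between the groups. Sox10 overlapped too, and Tfap2a did not. The crest factor gene Foxd3 was at 0 in all Foxa2+ CM samples and at most 0.0618 CPM in Foxa2- CM.

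Within the cardiac mesoderm list, Nkx2-5 was higher (1.11) and Mesp1 (-3.10), Isl1 (-2.69) and Hand1 (-1.04) were lower in Foxa2+ CM. For this and the next lists, 3.81% and 2.66% of all genes tested were called in those directions. Kdr and Pdgfra, by which CM was sorted, were not called. Pdgfra was just above the threshold (-0.37, adjusted p = 0.0524, edgeR). Its levels, 201 to 246 CPM in Foxa2+ CM and 259 to 306 in Foxa2- CM, did not overlap. Such a fall in every Foxa2+ CM sample was seen for 10.4% of all genes tested. Of the endoderm markers, Foxa2 was higher in Foxa2+ CM (3.18), as the sort by its reporter fixes, and Sox17 was higher too (2.09). The uncalled endoderm markers moved both ways, with log2 values from -0.88 to 0.26. The sum of the 8, Foxa2 included, was 96.4 to 166 CPM in Foxa2+ CM and 85.3 to 121 CPM in Foxa2- CM, so the groups overlapped. Lmo2 was the single haematopoietic marker called (0.79, higher in Foxa2+ CM), and the 8 summed to 488 to 640 CPM in Foxa2+ CM, 382 to 604 in Foxa2- CM and 1441 to 1661 CPM in Flk1+ high. Of the 7 paraxial mesoderm markers, 5 were tested, and Tbx6 (-1.14) and Foxc1 (-1.86) were lower in Foxa2+ CM. The others were not called, with Meox1 at 1.12, Foxc2 at 0.27 and Tcf15 at -0.74, and the sum of the 7 overlapped between the groups, at 25.6 to 35.0 CPM in Foxa2+ CM and 27.8 to 29.9 in Foxa2- CM. The part of any of these cell types in the levels of Syt6, Trim67, Bhlhe22 and Cpxm2 was not tested.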

How the data were processed

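RNA was sequenced from 10 sorted samples, with groups and replicate numbers taken from the labels. The authors made unstranded libraries from 500 ng of RNA, aligned 50 nt single-end reads to mm10 with STAR (2.5.0a in the submitters' processing notes), took out duplicates with Picard and counted those left on each gene with HTSeq (0.6.0), and the deposited values are these raw counts. Duplicate removal without molecular identifiers can limit the counts of abundant genes. Between 72.2% and 80.5% of uniquely aligned reads fell on genes, and 2.18% to 2.37% were ambiguous. Rows for unassigned reads were left out.

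Counts were normalized by TMM in edgeR (4.0.16, R 4.3.3), filtered with its default expression filter and tested by quasi-likelihood with a threshold of 0.05 after Benjamini-Hochberg adjustment. The CM groups were fitted on their 6 samples (15284 genes) and endoderm against Flk1+ high on all 10 (16180 genes). All 4 members passed both filters. Standard errors were worked back from the test statistic. CPM used TMM library sizes over the 10 samples. Likeness used log2 CPM with a prior count of 2. GENCODE M21 matched 37607 of 38924 identifiers. Scripts were tested on simulated data. Replicates differed by more than sampling noise.

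The members and the gene lists were chosen with earlier results of these data known. Genes are named if they are members, called relatives or markers, the 2 nearest protein-coding genes on each side, or the 5 most alike; uncalled relatives named for context (Cpxm1, Dcc, Ntn1 and Unc5c between the CM groups, and levels of other relatives) were chosen after their values were seen. Alternatives were DESeq2 (1.42.0) and its size factors, no filter, other samples in the fit, a replicate block, another prior count and leaving out each replicate. The single-gene results of 2 markers in these lists are not reported here.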

Additional observations from a re-analysis of the deposited data

How the results depend on the processing

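The falls of Syt6, Trim67, Bhlhe22 and Cpxm2 between the CM groups kept the direction that the choice of genes fixes, with leave-one-out ranges of log2 fold change from -4.11 to -3.12, from -4.15 (without Foxa2+ CM replicate 2) to -3.03, from -1.87 to -1.75 and from -2.77 to -2.54. Between endoderm and Flk1+ high the calls for Syt6 and Trim67 held throughout (adjusted p at most 0.0419 and 0.00125), and Bhlhe22 was never called. Cpxm2 ranged from 0.27 to 2.21 when 1 replicate was left out. Counts moved more. Genes called higher and lower in Foxa2+ CM numbered 583 and 407, 169 and 119 with all 10 samples in 1 model, and 144 to 1111 and 90 to 590 with 1 replicate left out, the most without Foxa2- CM replicate 3. Relatives called higher and lower numbered 1 and 1 in the 10-sample model, 1 to 3 and 1 to 2 with a replicate left out, and neighbours called lower 1 and 1 to 3. Between endoderm and Flk1+ high, a fit on only the 4 samples called 1399 genes higher and 1276 lower, and 9 relatives higher. The cause of these shifts was not tested. Signs turned for values near 0 as replicates were left out in turn, for Olfml3 (-0.88 to 0.18, with 0.11 between), 2810004N23Rik (-0.106 to 0.0151), Ythdf3 (-0.102 to 0.0170), Armc1 (-0.0798 to 0.00945), Bub3 (-0.0267 to 0.101) and Cpxm2 in Foxa2+ CM against Flk1+ high (-0.58 to 1.33, with -0.0240 between).

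The labels do not say whether same-numbered CM samples belong together, so the main fit did not take the numbers as pairs. Deviations of same-numbered CM replicates from their group means had correlations of 0.480, 0.0855 and 0.580 over genes. Between numbers 1 and 3 the correlations were -0.547 and -0.498. Deviations within a group sum to 0, so these values depend on each other. With the replicate block, 1398 genes were higher and 1158 lower, and 5 relatives were called in each direction. The samples numbered 1 and 3 correlated best with their own number, a hint from the data and not the design, and those numbered 2 with number 1. Depth limits Syt6 and Gpr26, with 3 and 0 counts in single Foxa2+ CM samples, and relatives too low to be tested, such as Dcc and Prdm8 between the CM groups.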
